A study of Homo sapiens with 31 samples.

Results

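The squamous lineage regulators described here are 9 genes grouped under that name, SOX2, KLF5, KLF4, TFAP2A, TFAP2C, GATA3, ZNF750, TRIM29 and ZBTB7C. They are 9 of the 19221 genes with a value in an expression table of 31 libraries, and every member had a row. The members were chosen by name as partners of TP63 and epidermal regulators, with earlier results of these libraries in view. Their levels and differences below are therefore a description, and no p-value is given for a member.

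The libraries fall into 4 groups of human cells labelled ovarian carcinoma. The group A2780 (n = 8 libraries) is the untreated parent line, and the group A2780 OlaR (n = 8) is labelled as a strain of A2780 grown under rising olaparib, an inhibitor of PARP enzymes, until it was resistant. C13* is a further line labelled ovarian carcinoma, whose origin the study itself names as a limitation, sequenced with a control shRNA (C13* shCON, n = 7) or with an shRNA carried by lentivirus against CEBPB, the gene of the transcription factor C/EBPβ (C13* shCEBPB, n = 8). The knockdown rests on 1 line and the resistance on 1 strain, and the study calls the libraries of a group biological replicates without saying that they came from separate cultures, so the spread between them may be technical. All cells are labelled adenocarcinoma. Values are FPKM, fragments of a gene per kilobase of its length and scaled to the fragments of that library, and a level or ratio below is always of FPKM.

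The groups did not lie where their labels place them. Over 13125 genes, the mean log2(FPKM + 1) of A2780 OlaR correlated with that of C13* shCON at r = 0.993, and 0.556% of these genes were at least 2-fold apart. A2780 OlaR correlated with A2780, its labelled parent, at r = 0.717, with 34.6% of genes 2-fold apart. C13* shCEBPB correlated with C13* shCON at r = 0.796, with 27.7% of genes 2-fold apart. These are descriptions across genes, which are not independent replicates. Within groups the libraries correlated at 0.981 or higher. Identity of the cells and treatment cannot be told apart in either comparison within a labelled line, and the names below are those of the labels. In addition, 1 library (C13* shCON replicate 1) has A2780 in its cell line field and C13* in its title, and it was kept as C13* shCON. CEBPB itself averaged 85.8 FPKM in C13* shCON and 47.1 in C13* shCEBPB, against 99.7 in A2780 and 112 in A2780 OlaR. Absolute depth is unknown, and relative depth, read from the steps of low values, ran from 0.865 to 1.23.

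Stratified epithelium renews from basal cells that carry p63, the product of TP63, and keratins 5 and 14. p63 works on enhancers together with AP-2 factors, KLF factors and, in many squamous carcinomas, SOX2. As cells leave the basal layer, KLF4 and ZNF750 help to turn on genes of the barrier, while KLF5 is better known from dividing cells. AP-2 factors and GATA3 also serve other lineages, among them trophoblast and luminal breast epithelium.

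Of the 9 members, 4 were above 1 FPKM in all 31 libraries (KLF5, KLF4, TFAP2A and TFAP2C). TRIM29 reached 1 FPKM in 23 libraries, ZBTB7C in 15, SOX2 in 8, ZNF750 in 2 and GATA3 in none. The sum of the 9 members ran from 37.3 to 40.0 FPKM over the A2780 libraries, from 739 to 808 in A2780 OlaR, from 678 to 744 in C13* shCON and from 272 to 340 in C13* shCEBPB. These ranges do not overlap between A2780, C13* shCEBPB and the remaining pair. ZBTB7C made up most of the sum in A2780 OlaR and C13* shCON, and KLF5 most of it in A2780. In C13* shCEBPB, TRIM29, KLF4 and TFAP2A carried it. In bulk RNA, fewer cells with a transcript and less transcript per cell cannot be told apart.

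**Figure D1:**
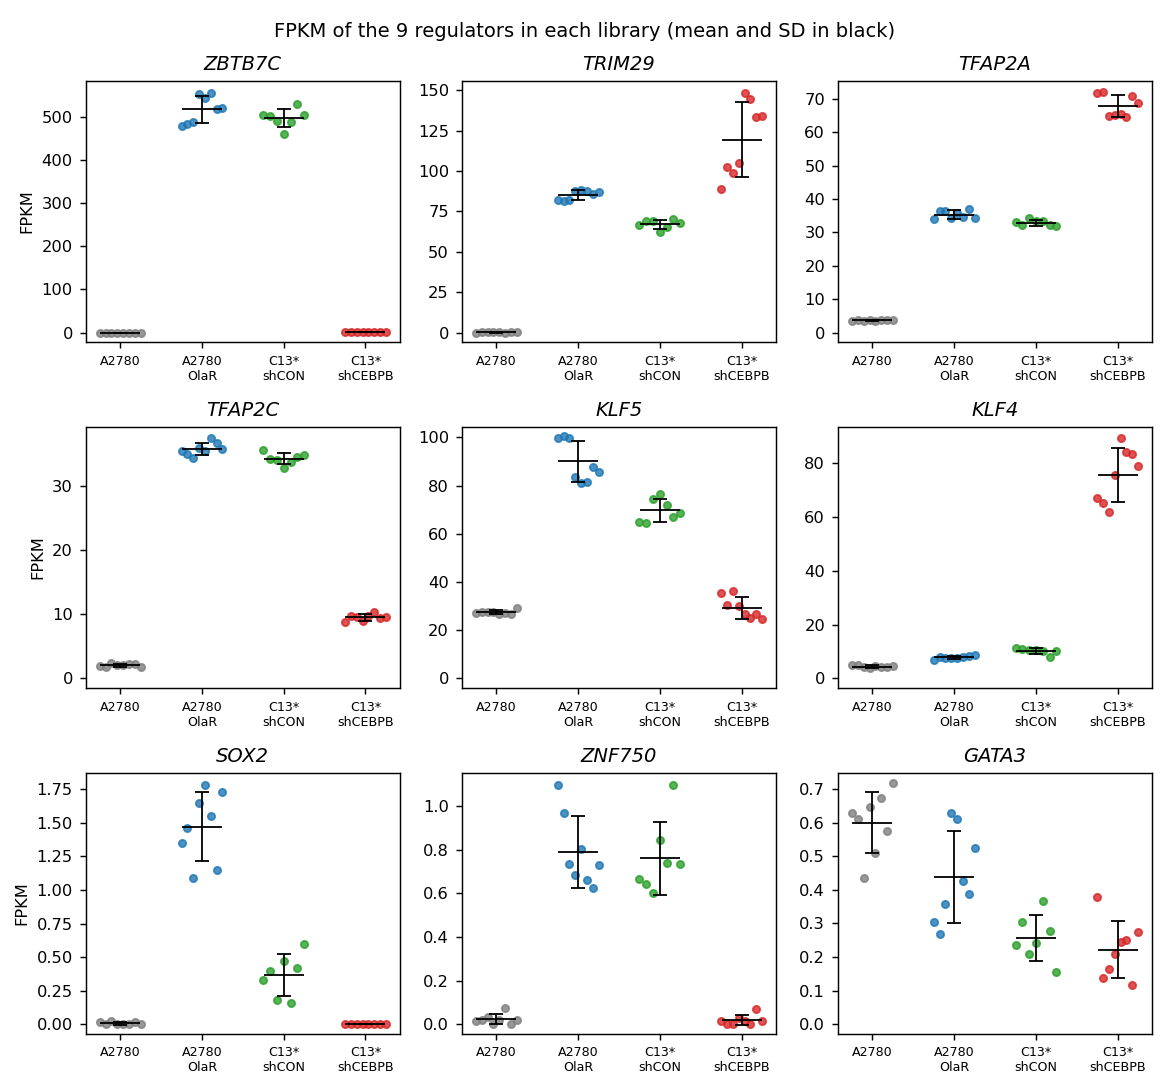
FPKM of each of the 9 regulators in every library (points, vertical axis, a linear scale of its own in each panel) by group (horizontal axis), with the mean and SD in black. ZBTB7C stood between 461 and 555 FPKM in A2780 OlaR and C13* shCON and below 1 in the other groups, while KLF4 and TFAP2A were highest in C13* shCEBPB.

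ZBTB7C, a zinc finger protein with a BTB domain that acts as a transcriptional repressor, had the widest range. It lies on the minus strand of chromosome 18 (chr18:48026672-48410752, hg38, GENCODE 44) in 23 merged exons. In A2780 the lowest and median FPKM were 0 and the highest 0.0112, the value of a single library. In C13* shCEBPB the lowest value was 0.152, the median 0.236 and the highest 0.386. A2780 OlaR ran from 479 through a median of 519 to 555, and C13* shCON from 461 through 501 to 530. ZBTB7C was thus listed at 0 in 7 of 8 A2780 libraries and was the 112th most abundant of 19221 genes in A2780 OlaR by mean FPKM. The C13* shCON mean was 1995 times that of C13* shCEBPB, and the A2780 OlaR and C13* shCON libraries overlapped. Its relatives of the same family did not share this range. ZBTB7A stayed between means of 9.0 and 11.5 FPKM, and ZBTB7B between 13.3 and 31.8, with A2780 and C13* shCEBPB as the higher groups.

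TRIM29, a tripartite motif protein used as a marker of squamous carcinoma, lies on chr11:120111286-120185529 on the minus strand. A2780 libraries ran from 0 through a median of 0.0570 to 0.110 FPKM. A2780 OlaR ran from 81.5 through 86.4 to 88.1, and C13* shCON from 62.1 through 67.6 to 70.2. C13* shCEBPB ran from 88.9 through 119 to 148. No neighbours in this order overlapped, and A2780 alone was near 0. Among the groups with a level, the SD was 19.3% of the mean in C13* shCEBPB, 3.42% in A2780 OlaR and 4.13% in C13* shCON. TRIM29 and ZBTB7C were therefore alike in A2780, where both were near 0, and unlike in C13* shCEBPB.

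The AP-2 genes TFAP2A (chr6:10393186-10419659, minus strand) and TFAP2C (chr20:56629306-56639283, plus strand) encode factors that bind the same GC-rich sites in epidermis and trophoblast. TFAP2A ran from 3.36 through 3.64 to 3.89 FPKM in A2780. It ran from 34.0 through 35.2 to 37.1 in A2780 OlaR and from 31.8 through 33.1 to 34.4 in C13* shCON. In C13* shCEBPB it ran from 64.5 through 67.1 to 71.9, above every library of the other groups. TFAP2C ran from 1.72 through 2.08 to 2.36 in A2780 and from 8.70 through 9.50 to 10.3 in C13* shCEBPB. In A2780 OlaR it ran from 34.3 through 35.6 to 37.4, which overlapped with 32.7 through 34.2 to 35.6 in C13* shCON. The AP-2 pair was thus balanced in A2780 OlaR and C13* shCON and not in the other groups. The ratio of TFAP2A to TFAP2C was 0.991 ± 0.0475 (SD, n = 8) in A2780 OlaR and 0.964 ± 0.0433 (SD, n = 7) in C13* shCON. In A2780 it was 1.79 ± 0.208 (SD, n = 8), and in C13* shCEBPB it reached 7.19 ± 0.60 (SD, n = 8). TFAP2B and TFAP2D were listed at 0 in every group, and TFAP2E was above 1 FPKM only in A2780 (mean 2.70). In GENCODE 44 TFAP2A shares 941 exonic bases with TFAP2A-AS2 and 438 with TFAP2A-AS1 on the opposite strand. Whether counting used the strand is not given in the sources used here, so reads of these partners cannot be told apart. The same limit holds for KLF4, with 357 exonic bases shared with a noncoding gene on the opposite strand. It also holds for ZBTB7C, with 50 shared with ZBTB7C-AS1 on the opposite strand, and for ZNF750 below.

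The KLF pair had different orders of the groups. KLF5, a zinc finger factor of dividing epithelial cells, lies on chr13:73054976-73077541 on the plus strand, and KLF4, a factor of the barrier layers and of reprogramming to pluripotency, on chr9:107484852-107490482 on the minus strand. KLF5 ran from 26.5 through 27.2 to 29.2 FPKM in A2780 and from 24.4 through 28.3 to 36.4 in C13* shCEBPB, and these groups overlapped. It ran from 64.3 through 68.4 to 76.5 in C13* shCON and from 81.1 through 86.7 to 101 in A2780 OlaR, with no overlap. KLF4 ran from 3.79 through 4.29 to 5.02 in A2780. A2780 OlaR (6.64 through 7.76 to 8.69) and C13* shCON (8.0 through 10.4 to 11.3) overlapped. In C13* shCEBPB it ran from 61.7 through 77.3 to 89.4, over 5 times any library of another group. The ratio of KLF5 to KLF4 was 6.30 ± 0.580 (SD, n = 8) in A2780, was higher at 11.7 ± 1.75 (SD, n = 8) in A2780 OlaR and was 6.89 ± 0.891 (SD, n = 7) in C13* shCON. In C13* shCEBPB it was 0.400 ± 0.115 (SD, n = 8), so that KLF4 was the more abundant of the pair in that group alone, in all 8 libraries.

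Other KLF genes placed the pair in context. KLF5 had the highest mean of the 17 KLF genes in A2780 OlaR and C13* shCON, and KLF4 had it in C13* shCEBPB. In A2780 the highest was KLF6 (mean 30.2 FPKM), a broadly expressed relative, just above KLF5 (27.4). KLF13 was the KLF gene next to KLF4 in C13* shCEBPB with a mean of 52.0 FPKM, against 17.5 in C13* shCON. KLF7 had a mean of 0.0160 in A2780, 9.02 in A2780 OlaR, 13.2 in C13* shCON and 2.11 in C13* shCEBPB. It had thus the same order of A2780 against the other groups as TRIM29 and the AP-2 genes, at a lower level.

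Some members also differed by library number within a group. In C13* shCEBPB, KLF4 ran from 61.7 to 67.0 FPKM in the libraries numbered 1 to 3 and from 75.6 to 89.4 in those numbered 4 to 8. KLF5 ran the other way, from 30.2 to 36.4 in libraries 1 to 3 and from 24.4 to 29.9 in 4 to 8. TRIM29 in the same group ran from 88.9 to 103 and from 105 to 148. In A2780 OlaR, KLF5 ran from 99.7 to 101 in libraries 1 to 3 and from 81.1 to 87.9 in 4 to 8, while ZBTB7C ran from 479 to 488 and from 518 to 555. These ranges did not overlap, as in 10 of the 35 sets of a member and a group that vary, and the 5 were chosen for mention after their values were seen. The share of such sets over all genes was not computed, so the count does not set the members apart. The FPKM of all genes in A2780 OlaR summed to 432948 to 435413 in libraries 1 to 3 and 448243 to 454578 in 4 to 8. In C13* shCEBPB the sums were 421616 to 432575 and 443684 to 453895. Sums of the 2 ranges overlapped in A2780 and in C13* shCON. The sources do not say that the numbers mark a batch, and its part in the results was not tested beyond the values within each range. The difference of TRIM29 between C13* shCEBPB and C13* shCON was 0.49 in libraries 1 to 3 and 0.99 in 4 to 8, on the log2(FPKM + 1) scale used below. That of KLF5 between C13* shCEBPB and A2780 changed from 0.30 to -0.05, and that of ZBTB7C between A2780 OlaR and C13* shCON from -0.04 to 0.12. KLF4 kept its direction in both ranges in all 4 comparisons.

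SOX2, a factor of pluripotent cells, foregut and squamous carcinoma, lies on chr3:181711925-181714436 on the plus strand as 1 exon, within SOX2-OT on the same strand and with no shared exonic bases. Its levels were low throughout. A2780 OlaR ran from 1.09 through 1.5 to 1.79 FPKM, and C13* shCON from 0.158 through 0.396 to 0.597. In A2780 5 of 8 libraries were listed at 0 and the highest value was 0.0216, and in C13* shCEBPB all 8 were listed at 0. A2780 OlaR and C13* shCON did not overlap and differed 4.04-fold, the largest ratio between these groups among the 9 members. SOX15, a SOX factor of skin and muscle, was the most abundant SOX gene in A2780 OlaR and C13* shCON with means of 68.3 and 61.2 FPKM, against 2.06 in A2780 and 0.857 in C13* shCEBPB. SOX7 was also higher in A2780 OlaR and C13* shCON, with means of 24.6 and 24.4 against 0.202 and 0.727. SOX9, a factor of hair follicle and duct cells, had means of 7.29 and 5.69 against 0.0318 and 1.08.

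ZNF750, a zinc finger factor that p63 turns on during epidermal differentiation, lies on chr17:82829434-82840022 on the minus strand, within TBCD on the opposite strand, with which it shares 222 exonic bases. A2780 OlaR ran from 0.626 through 0.732 to 1.10 FPKM and overlapped with C13* shCON, from 0.60 through 0.737 to 1.10. A2780 ran from 0 through 0.0172 to 0.0740 and overlapped with C13* shCEBPB, from 0 through 0.0156 to 0.0682. A2780 OlaR and C13* shCON were thus the higher groups, as for ZBTB7C, and only 2 libraries reached 1 FPKM.

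GATA3, a zinc finger factor of hair follicle, luminal breast epithelium and T cells, lies on chr10:8045378-8075198 on the plus strand. It was below 1 FPKM in every library. A2780 ran from 0.434 through 0.620 to 0.719, A2780 OlaR from 0.269 through 0.406 to 0.630, C13* shCON from 0.156 through 0.240 to 0.366 and C13* shCEBPB from 0.115 through 0.226 to 0.379. All neighbours in this order overlapped. A2780 and C13* shCEBPB, the ends of that order, did not overlap. The GATA genes with a level were GATA2, with means of 15.3, 5.97, 5.57 and 41.3 FPKM in A2780, A2780 OlaR, C13* shCON and C13* shCEBPB, and GATA6, with 0.896, 7.64, 5.82 and 3.55. GATA4 was above 1 FPKM only in A2780 (mean 5.63).

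**Figure D2:**
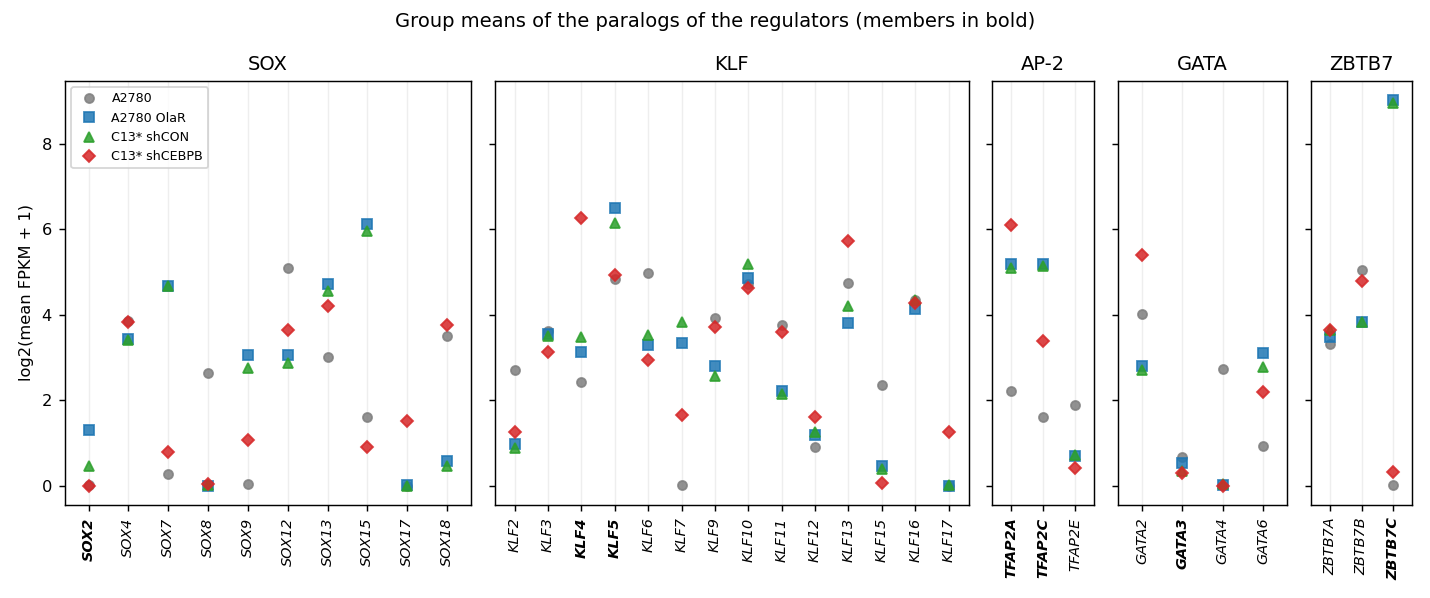
Mean level in each group as log2(mean FPKM + 1) (vertical axis) for the SOX, KLF, AP-2, GATA and ZBTB7 genes (horizontal axis) that reach a mean of 1 FPKM in a group, with the members in bold. KLF4 and KLF13 were highest in C13* shCEBPB, and ZBTB7C stood far above ZBTB7A and ZBTB7B in A2780 OlaR and C13* shCON.

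Differences were computed with limma on log2(FPKM + 1), which understates differences of low genes, and are given with their standard errors. A gene was tested where it reached 1 FPKM in at least the number of libraries of the smaller group, and was called where its p, adjusted over all genes tested, was under 0.05. The first comparison asks how the olaparib-resistant strain differs from its labelled parent. Against A2780, A2780 OlaR was higher by 9.01 (SE 0.04) for ZBTB7C, 6.36 (SE 0.03) for TRIM29, 3.59 (SE 0.04) for TFAP2C and 2.97 (SE 0.03) for TFAP2A. The difference was 1.67 (SE 0.05) for KLF5, 1.29 (SE 0.05) for SOX2 and 0.70 (SE 0.05) for KLF4. As ratios of FPKM these were 17.5-fold for TFAP2C, 9.75-fold for TFAP2A, 3.28-fold for KLF5 and 1.77-fold for KLF4. All 7 tested members were called higher, but ZBTB7C, TRIM29 and SOX2 passed the level filter only through A2780 OlaR, so that their direction was fixed by the filter. With a pseudocount of 0.01 in place of 1 these 3 differences became 15.52, 10.8 and 6.60. Over all 12458 genes tested, 40.1% were called higher and 49.7% lower, and the median difference was -0.12, so a call alone does not set a gene apart here. GATA3 (-0.16) and ZNF750 (0.80) did not pass it.

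The second comparison asks how C13* shCEBPB differs from C13* shCON, where identity of the cells and the shRNA cannot be told apart. Below, rose and fell mean higher and lower in the group named, not a change shown within a line. Against C13* shCON, C13* shCEBPB was higher for KLF4 by 2.77 (SE 0.08), for TFAP2A by 1.02 (SE 0.04) and for TRIM29 by 0.80 (SE 0.10). The log2 difference was -8.64 (SE 0.05) for ZBTB7C, -1.75 (SE 0.04) for TFAP2C and -1.23 (SE 0.08) for KLF5. As ratios, KLF4 was 7.40-fold, TFAP2A 2.06-fold and TRIM29 1.78-fold higher, while TFAP2C was 3.61-fold and KLF5 2.38-fold lower. The 6 tested members thus split into 3 called higher and 3 called lower, with each of the KLF and AP-2 pairs on both sides. ZBTB7C passed the filter only through C13* shCON, and the other 5 reached 1 FPKM in both groups. Of all 12006 genes tested, 38.9% were called higher and 45.7% lower, with a median of -0.07. SOX2 (-0.44), ZNF750 (-0.79) and GATA3 (-0.04) did not pass the level filter, although SOX2 and ZNF750 libraries did not overlap between the groups.

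**Figure D3:**
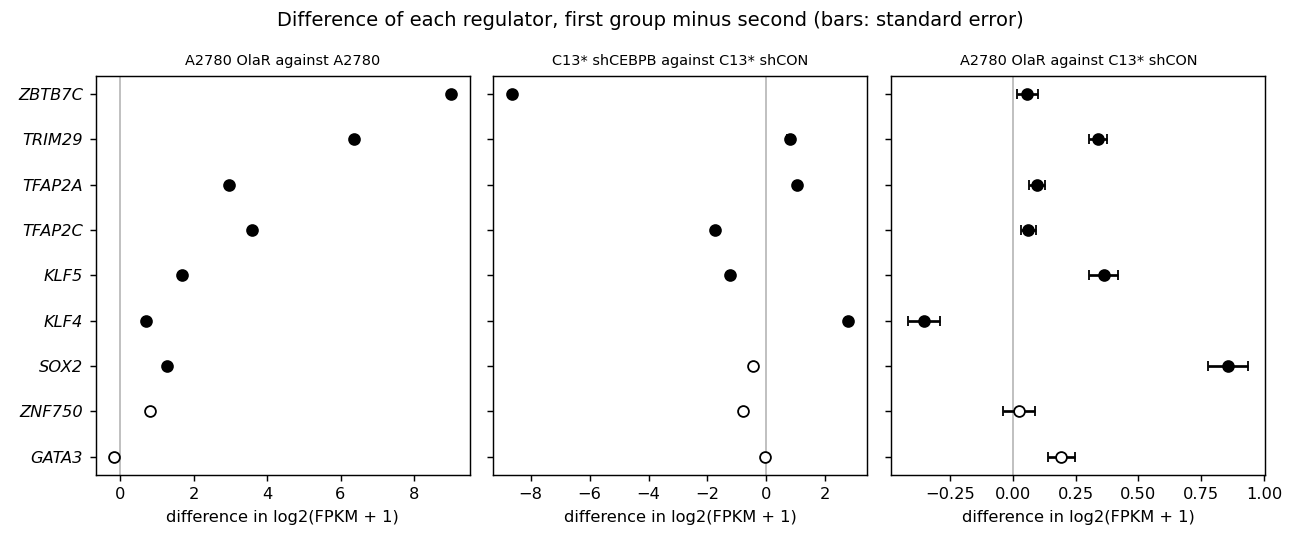
Difference in log2(FPKM + 1) of each regulator, first group minus second (horizontal axis, a scale of its own in each panel), with the standard error as bars, which are often smaller than the points. Filled points passed the level filter and open points did not. The differences reached 9.01 in the first panel and -8.64 in the second, and stayed within 1 in the third.

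The remaining comparisons set the lines beside each other. Between A2780 OlaR and C13* shCON, SOX2 was higher in A2780 OlaR by 0.86 (SE 0.08), KLF5 by 0.36 (SE 0.06), TRIM29 by 0.34 (SE 0.03) and TFAP2A by 0.10 (SE 0.03), and KLF4 differed by -0.35 (SE 0.06). SOX2 passed the filter only through A2780 OlaR, and with a pseudocount of 0.01 its difference was 2.09. These 4 were called higher and KLF4 lower, beside 19.3% and 22.9% of 11547 genes. The libraries of KLF4 and TFAP2A overlapped, and TFAP2A was no longer called after scaling to a common sum of FPKM. TFAP2C (0.06, SE 0.03) and ZBTB7C (0.06, SE 0.04) were not called. Apart from SOX2 no member differed 2-fold between A2780 OlaR and C13* shCON in FPKM among the 7 tested. Between C13* shCEBPB and A2780, TRIM29 (6.82, SE 0.09), TFAP2A (3.90, SE 0.04), KLF4 (3.83, SE 0.07) and TFAP2C (1.78, SE 0.05) were called higher in C13* shCEBPB, and KLF5 (0.08, SE 0.07) was not called. TRIM29 passed the filter only through C13* shCEBPB, and with a pseudocount of 0.01 its difference was 11.26. Here 37.4% of 12234 genes were called higher and 51.5% lower. These 4 comparisons share groups pairwise and are not independent of each other.

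Upstream sequence was available for 6 of the 9 members (15 transcript starts, RefSeq, GRCh38.p14) and not used for TFAP2C, ZNF750 and TRIM29. The 250 bases before a start are shown for 3 members on which the results turn, the KLF pair, which differed in opposite directions between C13* shCEBPB and C13* shCON, and ZBTB7C with the widest range. For each a start was taken whose window holds no annotated exon. KLF5 and ZBTB7C each had another such window, which is not shown, and the exon rule did not decide between them. Capitals mark matches, on either strand, to TTNNGCAA (C/EBP), GGGNGGG (KLF) or GCCNNNGGC (AP-2), and neighbouring matches may overlap and then run together.
KLF4 (chr9:107489770-107490019, minus strand): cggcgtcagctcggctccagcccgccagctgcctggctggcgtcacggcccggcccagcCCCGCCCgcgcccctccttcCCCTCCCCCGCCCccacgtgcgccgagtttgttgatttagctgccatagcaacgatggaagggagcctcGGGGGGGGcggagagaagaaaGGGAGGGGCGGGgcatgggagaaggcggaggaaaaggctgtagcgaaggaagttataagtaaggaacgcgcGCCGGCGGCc
KLF5 (chr13:73058755-73059004, plus strand): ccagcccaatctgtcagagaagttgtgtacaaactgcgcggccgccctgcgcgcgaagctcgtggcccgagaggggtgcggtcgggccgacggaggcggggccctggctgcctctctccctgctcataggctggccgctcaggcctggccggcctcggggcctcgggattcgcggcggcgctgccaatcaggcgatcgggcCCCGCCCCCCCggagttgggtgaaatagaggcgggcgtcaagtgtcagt
ZBTB7C (chr18:48375628-48375877, minus strand): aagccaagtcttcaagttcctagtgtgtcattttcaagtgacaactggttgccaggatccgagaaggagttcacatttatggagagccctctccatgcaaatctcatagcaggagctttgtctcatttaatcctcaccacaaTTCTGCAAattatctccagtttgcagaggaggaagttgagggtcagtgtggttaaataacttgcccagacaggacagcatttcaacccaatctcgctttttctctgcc
The KLF4 window had 7 KLF matches and 1 AP-2 match and 69.2% G and C, and the KLF5 window shown had 2 KLF matches. The ZBTB7C window shown, upstream of the outermost of its 3 starts, had 44.8% G and C and a C/EBP match that begins 108 bases before the start. The other KLF5 window without an exon (chr13:73054726-73054975) had 0 KLF matches. That of ZBTB7C (chr18:48193927-48194176) had 2 KLF matches and 0 C/EBP matches. Of 34943 windows of this length, 51.6% held the KLF letters, 19.7% the AP-2 letters and 9.06% the C/EBP letters. A C/EBP match was also present in 1 GATA3 window, so that 2 of the 15 member windows held one. A match is a run of letters and does not show binding.

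Levels of other genes of the lineage were read from lists of known genes. TP63 had means of 0.133 FPKM in A2780, 56.1 in A2780 OlaR, 53.1 in C13* shCON and 0.0791 in C13* shCEBPB. Its log2 difference was 5.65 (SE 0.05) between A2780 OlaR and A2780 and -5.65 (SE 0.05) between C13* shCEBPB and C13* shCON. TP63 passed the level filter only through A2780 OlaR and C13* shCON, so that its direction was fixed by the filter in both comparisons. The high TFAP2A, KLF4 and TRIM29 of C13* shCEBPB therefore stood beside near absence of TP63. Of 24 squamous regulators outside the members, 20 of 22 tested rose in A2780 OlaR against A2780 and 2 fell (median 3.61). Against C13* shCON, 18 of 22 tested fell in C13* shCEBPB and 4 rose (median -2.14). Of those tested, 10 in the first comparison and 9 in the second reached 1 FPKM in both groups, of which 9 rose and 1 fell and 2 rose and 7 fell. For the others the filter fixed the direction. The shares called over all genes were 40.1% higher and 49.7% lower in the first comparison and 38.9% higher and 45.7% lower in the second, and the counts of the lists below stand beside the same shares. EHF, an epithelial ETS factor, had means of 0.00384, 27.3, 37.7 and 0.0120 FPKM in the order of the groups above. The 4 that rose in C13* shCEBPB included PITX1, DLX3 and PRDM1, chosen for mention after their values were seen. DLX3 and PRDM1 are known from differentiating epidermis, and their means there were 11.9 and 5.32 FPKM, against 3.12 and 0.728 in C13* shCON. PRDM1 was below 1 FPKM in every C13* shCON library, so that its direction was fixed by the filter. PAX9 was 1 of the 2 that fell in A2780 OlaR against A2780. Its means were 133, 15.4, 12.8 and 1.09 FPKM in the same order of the groups, and it was also named after its values were seen.

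Genes listed as basal squamous had the same directions as TP63. This list is not limited to the basal layer and holds genes such as SFN. All 21 tested of 22 rose in A2780 OlaR against A2780 (median 4.56), and all 21 fell in C13* shCEBPB against C13* shCON (median -3.77). The filter fixed the direction of 11 of these in the first comparison and 10 in the second, which reached 1 FPKM in a single group. The other 10 all rose and the other 11 all fell. KRT5, a keratin of basal cells, had a mean of 1813 FPKM in A2780 OlaR and 1530 in C13* shCON, and was at 0.0134 in C13* shCEBPB and listed at 0 in A2780. COL17A1, a hemidesmosome collagen, had means of 72.6 and 135 against 0.434 and 1.17. SFN and KRT17 fell less far, to means of 129 and 250 FPKM in C13* shCEBPB from 1157 and 608 in C13* shCON. Of 27 genes of differentiating squamous cells, 14 were tested against A2780, of which 12 rose in A2780 OlaR and 2 fell, and 5 of them reached 1 FPKM in both groups, 3 rising and 2 falling. In C13* shCEBPB against C13* shCON 13 were tested, of which 8 fell, 3 rose and 2 were not called, beside 45.7% lower and 38.9% higher over all genes. Of the 8 with 1 FPKM in both groups, 3 fell and 3 rose. KRT13, a keratin of mucosal layers, had means of 0.576, 304, 132 and 0.195 FPKM in the 4 groups. CSTA, a protease inhibitor of the cornified layer, had 33.2 FPKM in both A2780 OlaR and C13* shCON and was listed at 0 in C13* shCEBPB. SLPI, a secreted protease inhibitor, rose in C13* shCEBPB to 68.8 FPKM from 35.5.

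**Figure D4:**
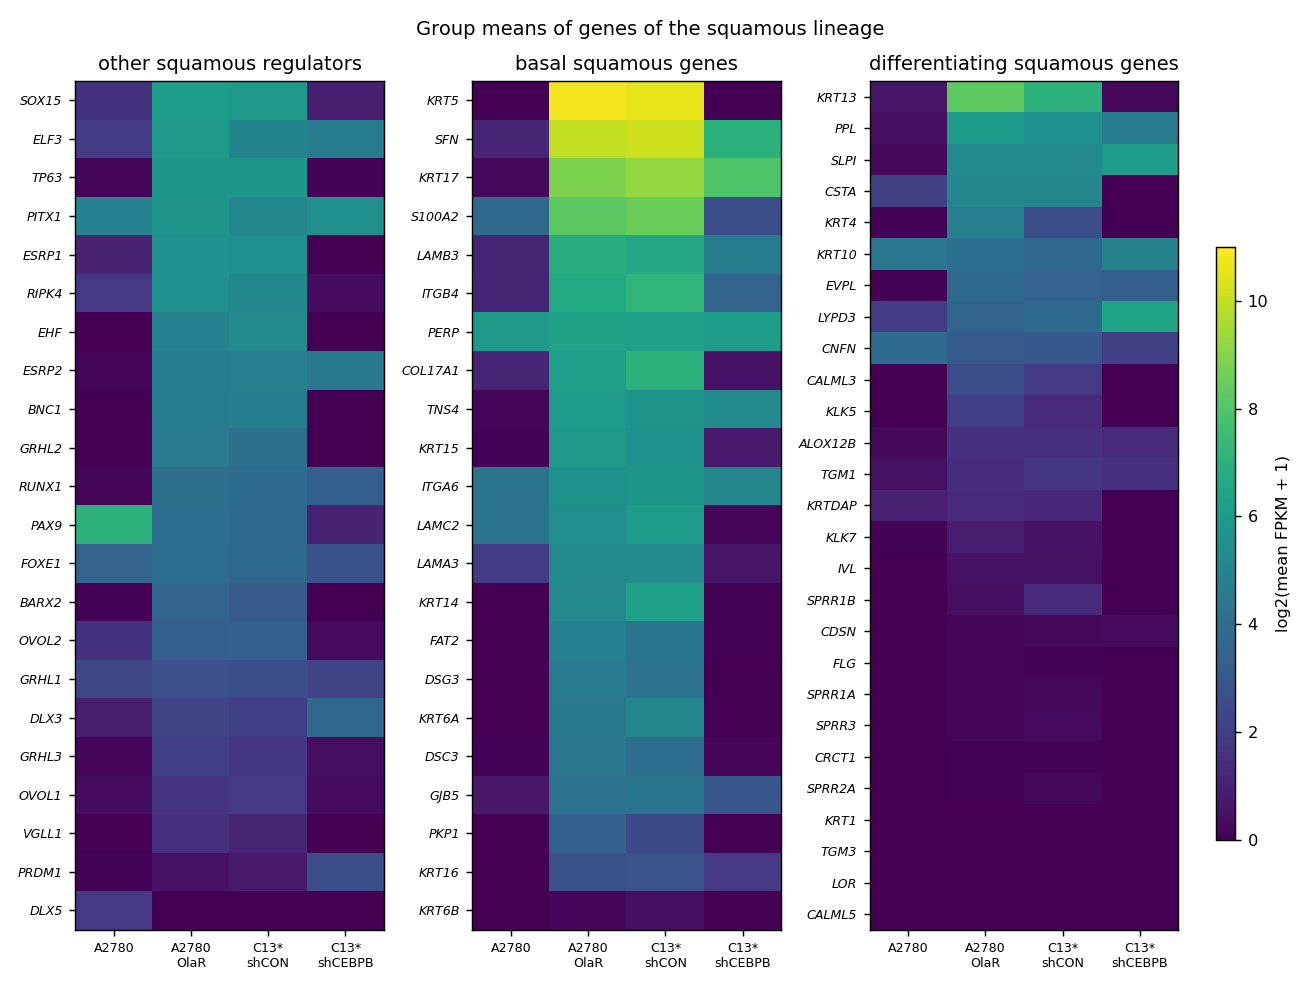
Group means as log2(mean FPKM + 1) (colour) in the 4 groups (columns). Rows, sorted by A2780 OlaR, are 22 other squamous regulators, 22 genes listed as basal squamous and 27 differentiation genes. A2780 OlaR and C13* shCON share the bright rows, and in C13* shCEBPB genes such as KRT17, SFN, SLPI and LYPD3 remained bright while KRT5, TP63 and EHF were dark.

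Markers of other lineages stood beside these values. Simple epithelial keratins differed among themselves in C13* shCEBPB, where KRT8 had a mean of 882 FPKM and KRT7 of 583, against 459 and 8.02 in C13* shCON and 5.90 and 0.0626 in A2780. KRT19, a further keratin of that kind, had means of 0.197 in A2780, 1836 in A2780 OlaR, 1470 in C13* shCON and 0.0306 in C13* shCEBPB. EPCAM and CDH1, adhesion proteins of epithelium, had means of 0.567 and 0.655 FPKM in C13* shCEBPB and 111 and 82.9 in C13* shCON. VIM, the intermediate filament of mesenchymal cells, had means of 809, 0.160, 9.82 and 342 FPKM. Of 12 mesenchymal genes, 11 were tested in C13* shCEBPB against C13* shCON, of which 7 rose and 4 fell, and of 13 simple epithelial and Müllerian genes 10 were tested, of which 6 rose and 4 fell. Of the mesenchymal genes 8 reached 1 FPKM in both groups, of which 4 rose and 4 fell. Of the simple epithelial and Müllerian genes 5 did, and all 5 rose. For the others the filter fixed the direction. Over all genes tested in that comparison 38.9% were called higher and 45.7% lower. PAX8, a marker of Müllerian epithelium, had means of 6.0 and 6.10 FPKM in A2780 OlaR and C13* shCON and 0.555 and 0.536 in the other groups, and WT1 had means under 1 FPKM in all. Of 16 trophoblast and luminal genes that go with GATA3 and AP-2, 10 were tested in C13* shCEBPB against C13* shCON, of which 3 rose and 6 fell, beside the same shares over all genes. Of the 5 of these with 1 FPKM in both groups, 2 rose and 2 fell. CGA, the shared subunit of glycoprotein hormones, had a mean of 561 FPKM in C13* shCEBPB and was listed at 0 in A2780 OlaR and C13* shCON. Of the partners of SOX2 and KLF4 in pluripotent cells, 4 of 12 were tested in the same comparison, 3 rose and 1 fell, beside the same shares. Of the 3 with 1 FPKM in both groups, 2 rose and 1 fell. MYC had means of 34.1, 141, 129 and 149 FPKM, and POU5F1 stayed under 3 and NANOG under 1 FPKM in all groups. Of the 7 markers of blood, vessel and pigment cells, the sums ran from 80.4 to 106 FPKM in A2780, 41.4 to 49.4 in A2780 OlaR, 66.6 to 74.3 in C13* shCON and 11.8 to 14.7 in C13* shCEBPB. PTPRC, the leukocyte antigen CD45, made most of it in A2780 (mean 85.9), where CD3E was at 0. CD68 made most of it elsewhere. The part of other cell types or of a different line in the members' levels was not tested.

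The genes whose pattern was most like each member's were found by the root mean square distance of centred log2(FPKM + 1) over the 31 libraries, among 12275 genes. Nearest to ZBTB7C was SYT8 at 0.32, with group means of 0.0203, 343, 292 and 0.00206 FPKM, and then IL1A at 0.86. Nearest to TRIM29 were LGALS3 (0.16) and KRT8 (0.18). For TFAP2A they were KCTD12 (0.17) and PC (0.19), and for TFAP2C PXMP4 (0.14) and TRIM16 (0.19). Nearest to KLF4 were CSRP1 (0.20), with 168 FPKM in C13* shCEBPB against 23.9 in C13* shCON, and FOXL1 (0.23), with 21.1 against 1.34. KLF5 lay nearest to PUDP (0.14) and DNAH5 (0.14), and SOX2 to AKR1B1 (0.17) and FLOT2 (0.18). GATA3 lay nearest to RPLP0 and SUPT6H (both 0.11), and ZNF750 to KAT7 and EPG5 (both 0.11). Both members had low levels, where this scale understates differences. The nearest gene thus differed for every member, and the members of a pair (KLF4 with KLF5, TFAP2A with TFAP2C) shared none.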

How the data were processed

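mRNA of 31 libraries of established cell lines was measured in 4 groups, taken from the sample titles. Per the study's methods, 150-bp paired-end reads were aligned by TopHat to hg38 and counted by HTSeq, and the authors tested counts with the exact test of edgeR. The submitters' processing notes name FastQC, TopHat, edgeR and hg38. FPKM were deposited by the authors in 1 table for all libraries, and these were analysed. The tool and annotation behind the FPKM and the use of strand are not given in the sources used here, and counts were not used here. Of 19225 entries, 4 were dropped for a repeated symbol, and 1212 genes were at 0 in every library. No libraries had identical values. Relative depth came from the steps of values of 2181 low genes (83.7% of 22572 values within 0.05 of a whole step). FPKM summed to between 417556 and 454578.

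Differences were fitted by lmFit and trended eBayes of limma 3.58.1 in R 4.3.3, on log2(FPKM + 1) as two-sided tests, with only the 2 groups compared and Benjamini-Hochberg adjustment over all genes tested (1 FPKM in at least as many libraries as are in the smaller group). This took the place of the count test, since FPKM are not counts. This fit was checked on simulated data. Other steps used matplotlib 3.10.9, pandas 2.3.3, numpy 2.4.6 and Python 3.11.15. Positions came from GENCODE 44 on hg38.

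The members and gene lists were chosen with earlier results of these data known, the lists from general knowledge of the lineages. Named were all members, the 2 nearest genes of each, TP63 and up to 4 genes of a list with the largest called difference within a labelled line and no overlap of libraries, paralogs with a mean of at least 1 FPKM in a group, and lineage markers. MYC, POU5F1, NANOG and other markers outside this rule were named after their values were seen. Alternatives were pseudocounts of 0.1 and 0.01, no filter or a filter at 5 FPKM, quantile normalization, a common sum, a replicate block, 1 fit of all groups, the library numbers 1 to 3 and 4 to 8, a fold change of at least 2 and, added after seeing the data, leaving out C13* shCON replicate 1. Genes of a list that are not reported here by name were kept in its counts and left out of its picture.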

Additional observations from a re-analysis of the deposited data

Results flagged for a closer look

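In 35 sets of a member's values within a group that vary, 5 had a library far from the others by Dixon's criterion, which flags about 1 in 20 sets by chance. KLF5 was at 29.2 FPKM in A2780 replicate 8, above the rest of that group. KLF4 was at 8.0 FPKM in C13* shCON replicate 6, below the rest of that group. ZNF750 was at 0.0740 FPKM in A2780 replicate 6 and at 0.0682 in C13* shCEBPB replicate 7, each above its group. ZBTB7C was at 0.0112 FPKM in A2780 replicate 1, the only A2780 library above 0, and this was the lowest value above 0 that ZBTB7C had in any library. The last 3 values are of genes with few reads.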

How the results depend on the processing

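Under the alternatives, 111 of 115 counts of called genes and 271 of 286 member differences kept their side of the threshold and direction or, for counts, stayed within 1.5 times. For the differentiation genes, a filter at 5 FPKM left 9 of 14 calls in A2780 OlaR against A2780 and 7 of 11 in C13* shCEBPB against C13* shCON, where fewer genes were tested, and no filter gave 20. With a fold change of at least 2 on the log2(FPKM + 1) scale, 0 members were called between A2780 OlaR and C13* shCON, against 5. In the libraries numbered 1 to 3 the difference of ZBTB7C between these groups was -0.0435, against 0.12 in those numbered 4 to 8. That of KLF5 between C13* shCEBPB and A2780 was 0.30 in libraries 1 to 3 and -0.0524 in 4 to 8. The cause was not tested. A pseudocount of 0.01 moved members near 0 in a group the most, to 15.52 for ZBTB7C, 10.8 for TRIM29 and 6.60 for SOX2 in A2780 OlaR against A2780, with no change of call. TFAP2A between A2780 OlaR and C13* shCON was no longer called with a common sum (0.09), within either range (0.10 in both) or with a replicate block (0.10). Quantile normalization moved the median of all genes between C13* shCEBPB and A2780 from -0.18 to -0.06. Leaving out C13* shCON replicate 1 changed no call of a member.

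Libraries with the same replicate number did not deviate together. Replicates 6 and 7 of C13* shCON carry the library numbers 7 and 8, and the pairs and the block followed the replicate number. The correlation of the deviations within such pairs averaged -0.23 for A2780 OlaR with A2780 and -0.14 for C13* shCEBPB with C13* shCON, so the replicate block was not used above. Under it, 7 members were called between A2780 OlaR and A2780 and 6 between C13* shCEBPB and C13* shCON, the same counts as without it. FPKM carry no read totals, so no counting error is given for SOX2, ZNF750 and GATA3.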
